A study of Mus musculus with 12 samples.

Results

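The genes described here are 10 genes that mark T cells and natural killer (NK) cells, taken by name from the gene table: Cd3d, Cd3e, Cd3g, Cd4, Cd8a, Cd8b1, Nkg7, Gzma, Klrb1c and Ncr1. All 10 were found among the 55679 genes of the table, and each was read library by library. The libraries came from 6 adult male mice of strain 129S6/SvEvTac, 3 Adam19 WT and 3 Adam19 KO, with 1 library from the whole lung and 1 from the whole heart of each mouse. The KO mice were homozygous, in every cell of the body, for an Adam19-tdTomato allele in which a reporter construct takes the place of exons 6 and 7 of Adam19, a membrane metalloprotease gene. No mouse of these 12 libraries is labelled as treated. The mouse identifiers carry a prefix that no WT mouse shares with a KO mouse, so what the prefix stands for, which the labels do not say, cannot be told apart from genotype.

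T cells recognize antigen through a receptor whose signal runs through the CD3 chains, and the coreceptors CD4 and CD8 split mature T cells into helper and cytotoxic cells. NK cells kill infected or transformed cells without an antigen receptor, by releasing granules of perforin and granzymes under the control of activating and inhibitory surface receptors. The lung holds both kinds of cell in its tissue and its blood vessels, while the healthy heart holds few. In whole tissue, fewer cells of a type and less RNA per cell cannot be told apart.

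Total estimated counts ranged from 17674788 to 35862932 per library. Adam19 lay between 9.12 and 9.41 in the WT lungs and between 3.21 and 4.44 in the KO lungs, and between 9.17 and 10.27 in the WT hearts and between 6.01 and 6.67 in the KO hearts (normalized abundance, log2), so its levels followed the genotype labels. The cardiac myosin gene Myh6 was between 20.05 and 20.44 in the hearts and between 12.46 and 14.24 in the lungs. Of the heart muscle list 10 of 10 genes were called lower in the lung, and of the lung epithelium list 9 of 10 were called higher, with Hopx higher but under the fold threshold, so the tissue labels held too. The lungs differed in the share of summed abundance that fell on Rn7s1, a 7SL RNA gene, at 34.0%, 29.9% and 2.10% in WT replicates 1 to 3 and 10.5%, 3.22% and 20.3% in KO replicates 1 to 3.

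Lung WT replicate 3 stood apart from the other lungs in genes of the thymus. Rag1, which cuts the antigen receptor genes in developing lymphocytes, had 67.1 estimated counts there and 0 in the other 5 lungs, where a count of 0 allows up to 3 counts. Its partner Rag2 had 11.6 estimated counts there and 0 in the other lungs, and Psmb11, a proteasome subunit of thymic cortical epithelium, had 3.93 there and 0 in the others. Dntt, the terminal transferase of developing lymphocytes, had 41.0 estimated counts in that library and between 5.47 and 11.1 in the other 5 lungs. This lung was the highest of 6 in 6 of the 10 thymocyte markers, a list that also holds Cd8b1, and in 4 of the 6 thymic epithelium markers above 0 in a lung. The thymic transcription factor Foxn1 was at 0 in all 12 libraries, and the thymocyte gene Ptcra was at 0 in this lung. The summed level of the thymocyte list was between 9.45 and 9.80 in WT lungs and between 9.54 and 9.77 in KO lungs, and that of the thymic epithelium list between 6.58 and 7.35 and between 6.08 and 6.89 (log2). The thymocyte sum gives most weight to Mns1 (7.52 to 8.50 in the lungs) and Cd1d1 (7.29 to 7.72), and the epithelium sum to Ccl25 (5.67 to 7.09). Rag1 was 5.69 in lung WT replicate 3, so the sums say little about Rag1, Rag2, Dntt and Psmb11. The part that RNA of thymus cells has in the results below was not tested, and the genotype results are given with and without this library.

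**Figure D1:**
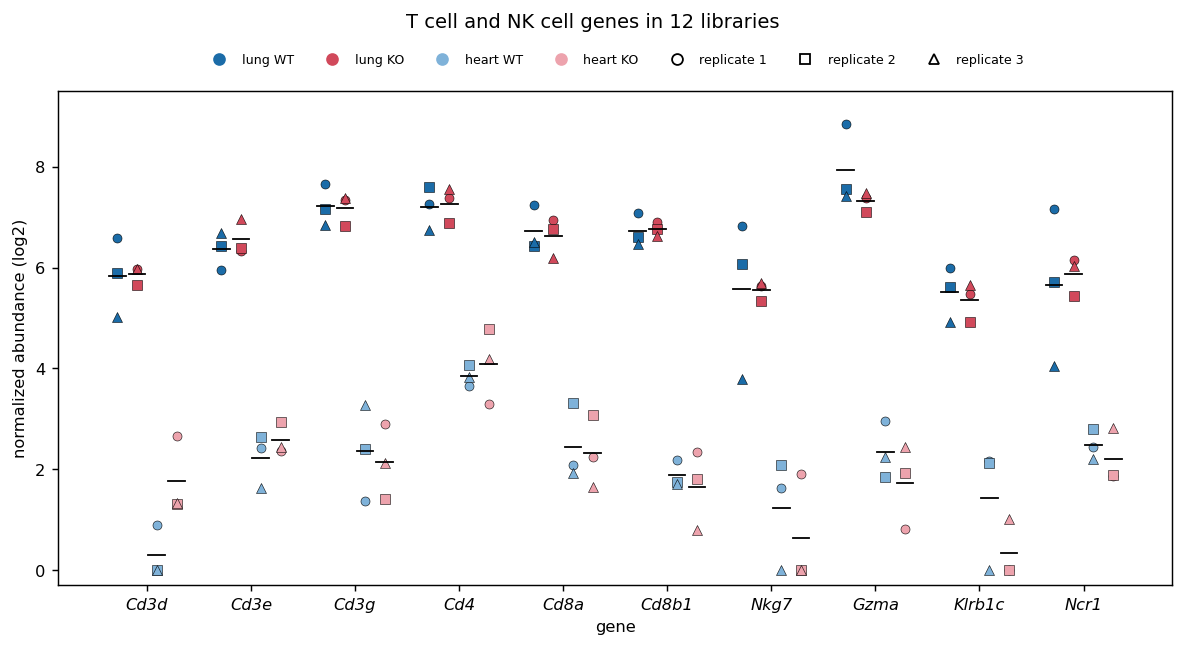
Normalized abundance (log2, y axis) of the 10 genes (x axis) in each library, coloured by tissue and genotype, with the replicate number as the shape and a bar at the group mean (n = 3). Every lung lies above every heart for all 10 genes, while the WT and KO lungs overlap for each of them.

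The 3 CD3 genes were detected in every lung and near the detection limit in the heart. They encode the delta, epsilon and gamma chains that carry the signal of the T cell receptor into the cell, and they are neighbours on chromosome 9 of GRCm39: Cd3g at chr9:44880870-44891735 on the reverse strand, Cd3d at chr9:44893083-44899173 on the forward strand and Cd3e at chr9:44910037-44920925 on the reverse strand. Only 1347 bases lie between Cd3g and Cd3d, and 10863 between Cd3d and Cd3e.

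Cd3d was 6.59, 5.90 and 5.02 in the lungs of WT replicates 1 to 3 and 5.98, 5.67 and 5.96 in those of KO replicates 1 to 3 (normalized abundance, log2). Cd3g was 7.66, 7.16 and 6.85 in WT lungs and 7.35, 6.83 and 7.39 in KO lungs. Both genes were highest in lung WT replicate 1, and the KO lungs fell within or close to the WT range. Cd3e was 5.96, 6.44 and 6.69 in WT lungs and 6.34, 6.39 and 6.97 in KO lungs. Its order over the lungs was unlike that of the other chains, with the lowest value in WT replicate 1, where Cd3d and Cd3g were highest. Part of this spread came with the step from transcripts to genes: when the estimated counts of its transcripts were summed on the same scale, Cd3e lay between 6.34 and 6.69 in all 6 lungs, and the deposited values differed from that sum by up to 0.38. For Cd3d the same difference was at most 0.029. Retained-intron transcripts held 22.5% of the estimated counts of Cd3e in the lung. Per kilobase of transcript, Cd3g stood at 4.62 to 7.94 times Cd3d and Cd3e at 1.14 to 5.54 times Cd3d in the 6 lungs, and both ratios were highest in WT replicate 3. A level per kilobase sums all transcripts of a gene, so counts on short transcripts weigh more. For Cd3e a retained-intron transcript of 517 nucleotides held 15.7 estimated counts in WT replicate 3 and 20.4 in KO replicate 3.

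In the heart, Cd3d was 0.90, 0 and 0 in WT and 2.65, 1.31 and 1.32 in KO replicates 1 to 3. All 3 KO hearts lay above all 3 WT hearts, but these values rest on 0.97 estimated counts over the WT hearts and 8.91 over the KO hearts, and an exact two-sided permutation test gave p = 0.1, the smallest that 3 against 3 allows (0.889 adjusted over the 10 genes). Cd3e was 2.41, 2.64 and 1.64 in WT hearts and 2.37, 2.93 and 2.44 in KO hearts. Cd3g was 1.37, 2.40 and 3.28 in WT hearts and 2.89, 1.41 and 2.13 in KO hearts. For these last genes the genotypes overlapped.

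The coreceptor genes were detected in every lung, and Cd4 was the only gene of the 10 with a level in the heart that passed the filter on low values. Cd4, the coreceptor of helper T cells, which some macrophages and dendritic cells also carry, lies at chr6:124841655-124874758 on the reverse strand. It was 7.26, 7.59 and 6.75 in WT lungs and 7.38, 6.89 and 7.55 in KO lungs. In the heart it was 3.64, 4.07 and 3.84 in WT and 3.29, 4.78 and 4.19 in KO, on 74 estimated counts over the 6 hearts. The KO hearts held both the lowest and the highest value.

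Cd8a and Cd8b1 encode the alpha and beta chains of the coreceptor of cytotoxic T cells and lie 35323 bases apart on the forward strand, at chr6:71350411-71356157 and chr6:71299772-71315087. Cd8a was 7.24, 6.43 and 6.51 in WT lungs and 6.95, 6.76 and 6.19 in KO lungs. Cd8b1 was 7.09, 6.61 and 6.48 in WT lungs and 6.90, 6.77 and 6.64 in KO lungs. Both were highest in WT replicate 1 and followed each other over the lungs, with an alpha to beta ratio per kilobase of 0.79 ± 0.11 (SD, n = 6). In the heart Cd8a was 2.08, 3.32 and 1.93 in WT and 2.25, 3.07 and 1.65 in KO. Cd8b1 in the heart was 2.18, 1.74 and 1.71 in WT and 2.34, 1.81 and 0.80 in KO. The genotypes overlapped for both. The ratio of Cd4 to Cd8a per kilobase was 1.48 ± 0.57 (SD, n = 6) in the lung, from 0.98 in WT replicate 1 to 2.41 in KO replicate 3, and the WT and KO lungs overlapped in it. The highest ratio rests in part on 13.6 estimated counts of a Cd4 transcript of 591 nucleotides without a defined coding sequence.

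Cd8a had 2 coding transcripts in the lung, which differ by exon 4 of 31 nucleotides. The full transcript codes for 741 nucleotides (247 codons before the stop) and the one without exon 4 for 666 nucleotides (222 codons), because the shift of reading frame leaves 5 coding nucleotides in the last exon in place of 49. The shorter form is known as CD8 alpha prime and has a truncated cytoplasmic tail, the part that binds the kinase Lck in the full protein. The 3 splice junctions that tell these transcripts apart are shown from GENCODE on GRCm39, forward strand of chromosome 6, 15 bases to each side, with the bases after the junction in capitals.
Cd8a exon 3 to exon 4, full form: tcatctgctaccacaGGAGCCGAAAGCGTG
Cd8a exon 4 to exon 5, full form: ttgcaaatgtcccagGCCGCTAGTCAGACA
Cd8a exon 3 to exon 5, short form: tcatctgctaccacaGCCGCTAGTCAGACA

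The short form made up 13.0%, 24.0% and 81.9% of the estimated counts of both coding forms in the lungs of WT replicates 1 to 3. In the KO lungs it made up 18.3%, 15.6% and 34.4%. Lung WT replicate 3, the library with the thymus genes, was the only lung in which the short form was the larger, with 62.0 estimated counts against 13.7 for the full form. The genotypes overlapped (exact two-sided permutation test, p = 0.7), and without that library the remaining 5 lungs lay between 13.0% and 34.4%. The estimate divides reads between transcripts that share most of their sequence, so its error is larger than counting alone would give. Retained-intron transcripts held another 26.0% of the estimated counts of Cd8a in the lung.

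**Figure D2:**
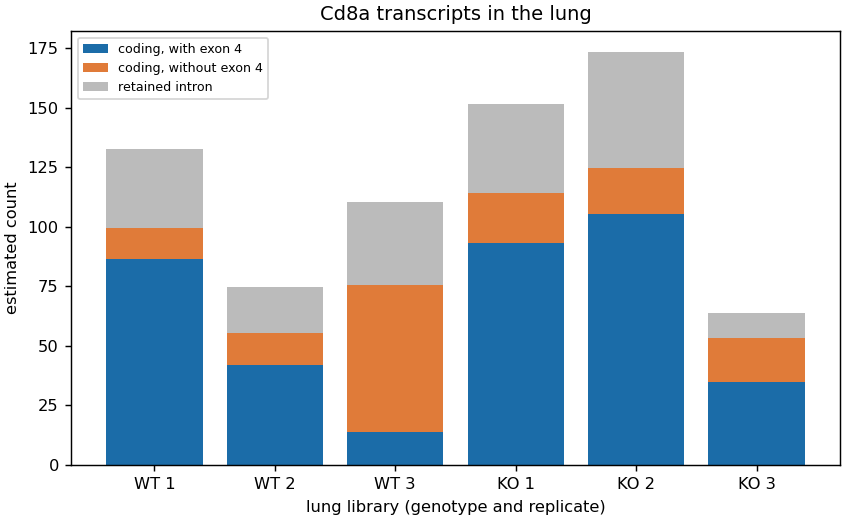
Estimated counts (y axis, not scaled between libraries) of the Cd8a transcripts in each lung library (x axis), stacked by transcript. The form without exon 4 makes up most of the coding counts only in WT replicate 3, where it is 81.9%.

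Among the NK cell and cytotoxic genes, Ncr1, Nkg7 and Gzma spread most over the 6 lungs, with SDs of 1.02, 1.005 and 0.62 (log2), while the SDs of the 6 T cell genes lay between 0.22 and 0.51 and that of Klrb1c was 0.43. Ncr1 encodes NKp46, an activating receptor carried by NK cells, and lies at chr7:4340710-4348171 on the forward strand. It was 7.17, 5.72 and 4.06 in WT lungs and 6.15, 5.44 and 6.04 in KO lungs, so the WT lungs covered the whole KO range. Nkg7, a granule membrane protein of cytotoxic lymphocytes at chr7:43086497-43087678 on the forward strand, was 6.83, 6.08 and 3.80 in WT lungs and 5.64, 5.34 and 5.70 in KO lungs. WT replicate 1 held the highest value of both genes and WT replicate 3 the lowest.

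Gzma encodes granzyme A, a serine protease of cytotoxic granules, and lies at chr13:113230355-113237524 on the reverse strand. It was 8.85, 7.56 and 7.42 in WT lungs and 7.37, 7.11 and 7.47 in KO lungs. The difference of the group means came mostly from WT replicate 1. Klrb1c, which encodes the NK1.1 receptor NKR-P1C, lies at chr6:128755448-128766178 on the reverse strand. It was 5.998, 5.61 and 4.92 in WT lungs and 5.48, 4.92 and 5.66 in KO lungs, and the genotypes overlapped. Its transcripts matched those of Klrb1a at 92.3% over 780 nucleotides, and its exons overlap the gene Gm44511 on the same strand by 155 nucleotides, so the division of its reads is less certain than that of the other genes. None of the 10 genes had a copy of at least 95% identity over at least 500 nucleotides. The NK gene complex that holds Klrb1c is known to vary between mouse strains, and the reference is of another strain than these mice.

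In the heart the NK cell genes were at the detection limit. Ncr1 was 2.44, 2.80 and 2.20 in WT hearts and 1.87, 1.88 and 2.83 in KO hearts. Gzma was 2.96, 1.84 and 2.25 in WT hearts and 0.81, 1.92 and 2.44 in KO hearts. For both genes the WT and KO hearts overlapped. Nkg7 was 1.62, 2.09 and 0 in WT hearts and 1.90, 0 and 0 in KO hearts. Klrb1c was 2.16, 2.13 and 0 in WT hearts and 0, 0 and 1.02 in KO hearts. Each of these last genes was at 0 in 3 of 6 hearts and had 6 estimated counts over all of them.

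Per kilobase of transcript, the order of the levels in the lung ran from Gzma to Klrb1c. These levels sum all transcripts of a gene, so counts on short transcripts weigh more, as for Cd3e and Cd4 above. For Nkg7 a retained-intron transcript of 526 nucleotides held 28.3 estimated counts in lung WT replicate 1. Gzma stood at 242 ± 135 normalized reads per kilobase (SD, n = 6), Cd3g at 150 ± 33.5, Cd3e at 70.2 ± 15.4, Nkg7 at 69.3 ± 38.2 and Cd4 at 56.4 ± 10.99. Cd8b1 followed at 51.4 ± 8.15, Ncr1 at 43.5 ± 28.8, Cd8a at 40.9 ± 11.3, Cd3d at 27.3 ± 9.51 and Klrb1c at 18.5 ± 5.48. Of the 9 neighbouring pairs in this order, 3 ran the same way in 6 of 6 lungs, Gzma above Cd3g, Cd3g above Cd3e and Cd3d above Klrb1c. Each had an exact sign-flip p of 0.03125 that came to 0.0938 after adjustment over the 9 pairs. The pairs and their direction were taken from these same 6 lungs, so these p-values are a description and cannot test the order. The 4 genes from Cd3e to Cd8b1 changed places between lungs, as did Ncr1 and Cd8a, so their order lay within the spread. Cd8b1 lay above Ncr1 and Cd8a above Cd3d in 5 of 6 lungs.

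The lung exceeded the heart in all 10 genes, in 6 of 6 mice and with every lung above every heart. The difference (log2, limma over 12 libraries, SE in brackets) ranged from 3.27 (0.27) for Cd4 to 5.59 (0.35) for Gzma, with adjusted p from 4.06e-09 for Cd8b1 to 1.26e-05 for Ncr1. Adjusted p was under 0.05 with a fold of at least 1.5 for 10 of 10 genes, against 40.4% of the 17666 genes tested. With a group mean of at least 6 as a further threshold, 6 of 10 were called higher, against 30.1% of all genes, since Cd3d, Nkg7, Klrb1c and Ncr1 had higher group means of 5.87, 5.57, 5.51 and 5.88. Lung and heart did not overlap, with the lung higher, in 34.8% of all genes tested. The 10 genes passed the filter on low values through the lung, where they are high, so their number past the test is a description. The exact sign-flip test over the 6 mice gave p = 0.03125 for each gene, the smallest it can give, and 0.03125 after adjustment over the 10 genes.

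The size of the difference is limited by the heart, where counts were low. Pooled over mice and scaled, the lung to heart ratio of estimated counts was 58.1 for Gzma (exact 95% interval 37.1 to 96.8, on 1309 counts in the lung and 19 in the heart). It was 46.7 for Nkg7 (21.2 to 128, on 332 and 6 counts), 41.5 for Cd8b1 (24.6 to 76.3), 41.3 for Klrb1c (18.8 to 114), 41.0 for Cd3g (26.4 to 67.4) and 30.5 for Cd3d (16.4 to 64.2). Cd8a had a ratio of 25.9 (17.1 to 41.2), Cd3e of 23.03 (15.2 to 36.6), Ncr1 of 14.7 (9.58 to 23.8) and Cd4 of 10.9 (8.59 to 14.0, on 955 and 74 counts). The intervals cover counting error only. The interval of Cd4 lay below those of all the other genes except Ncr1. Ncr1 had a wide range between mice, from 1.85 to 4.73 on the log2 scale, and Cd8b1 a narrow one, from 4.57 to 5.83.

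**Figure D3:**
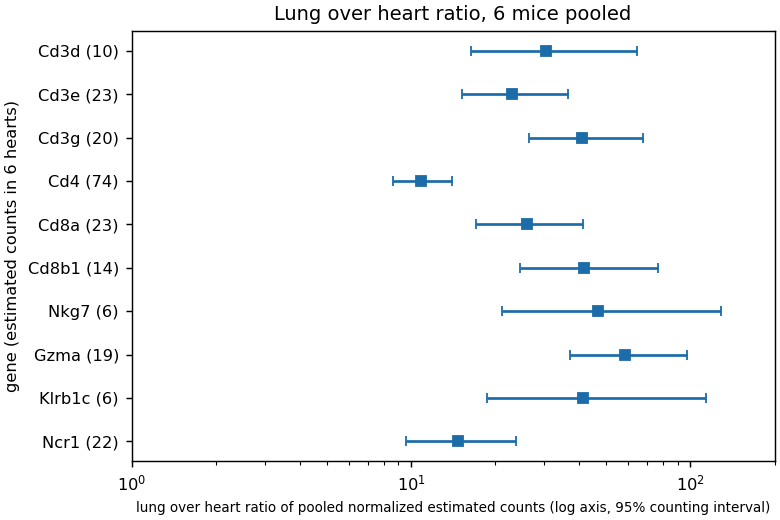
Lung to heart ratio of the pooled, scaled estimated counts (x axis, log scale) of each gene (y axis, with its estimated counts in the 6 hearts in brackets), with exact 95% counting intervals. Cd4 is the lowest at 10.9 and Gzma the highest at 58.1, and the intervals are widest where the hearts hold 6 counts.

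The comparison of KO with WT lungs asks whether loss of Adam19 goes with another level of T cell or NK cell genes in the unchallenged lung. None of the 10 genes was called, where 11 of 16551 genes tested (0.0665%) were, and none of the 10 had an unadjusted p under 0.05. The log2 fold changes (KO over WT, limma, SE in brackets) were 0.03 (0.39) for Cd3d, 0.20 (0.28) for Cd3e and −0.03 (0.27) for Cd3g. They were 0.07 (0.28) for Cd4, −0.09 (0.30) for Cd8a and 0.04 (0.24) for Cd8b1. Among the NK cell and cytotoxic genes they were −0.01 (0.67) for Nkg7, −0.16 (0.36) for Klrb1c, 0.23 (0.67) for Ncr1 and −0.62 (0.36) for Gzma. Adjusted p lay between 0.841 for Gzma and 0.999 for Nkg7. For Gzma the exact two-sided permutation test gave p = 0.2, and its fold change without lung WT replicate 1 was −0.17.

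A missing call does not show equal levels, and the 95% intervals give what the data allow. They lay within a fold of 2 in either direction for 7 of 10 genes and within a fold of 1.5 for 1, Cd8b1 (−0.49 to 0.58). The widest were those of Ncr1 (−1.29 to 1.76) and Nkg7 (−1.53 to 1.51). The KO lungs lay inside the WT range for Cd3d, Cd4, Cd8b1, Nkg7 and Ncr1. The SD over the WT lungs was larger than that over the KO lungs for all 10 genes, against 67.4% of the genes tested. When lung WT replicate 3 was left out, it was larger for 7 of 10, against 42.6% of the genes tested. Without that library the fold changes turned from positive to negative for Cd3d (−0.38), Cd4 (−0.15), Cd8b1 (−0.08) and Ncr1 (−0.56), and Nkg7 came to −0.89 with an adjusted p of 0.564. Without lung WT replicate 1 Ncr1 was 0.99 with an adjusted p of 0.806 and Nkg7 0.62. No gene was called in either case.

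**Figure D4:**
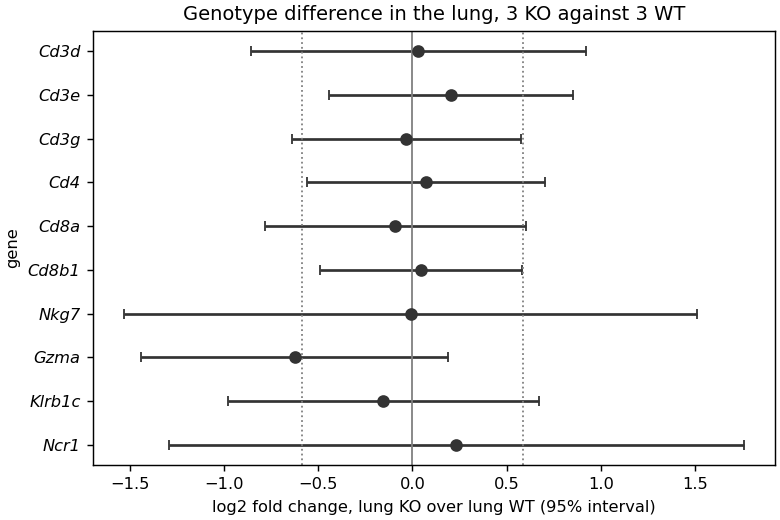
Log2 fold change of each gene (y axis) in KO over WT lungs (x axis, 3 libraries per genotype) with its 95% interval from limma, and dotted lines at a fold of 1.5 in each direction. Every interval includes 0, and the widest are those of Nkg7 (−1.53 to 1.51) and Ncr1 (−1.29 to 1.76).

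In the heart only Cd4 passed the filter on low values. It was not called (log2 fold change 0.24, SE 0.48, adjusted p = 0.920), where 13 of 15303 genes tested (0.085%) were, and its sign turned when the estimated counts were summed over transcripts. With no filter, the smallest p of the 10 genes was that of Cd3d, at 0.0292 unadjusted and 0.769 adjusted. A difference in the other 9 genes was not detectable at the depth of these hearts unless it was large. The difference of the genotype effect between lung and heart was called for none of the 10 genes, where 1 of 17666 genes (0.00566%) was, and its adjusted p lay between 0.651 for Cd3d and 0.999 for Gzma.

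The levels of several genes followed the Rn7s1 share over the 6 lungs. This comparison was chosen after its values were seen, and the adjustment over the 10 genes does not cover that choice, so its p-values are a description. In the deposited values Nkg7 had the same order as the Rn7s1 share, and Klrb1c came close to it. These values differed from the sums over transcripts in the lung by up to 0.26 for Nkg7 and 0.44 for Cd4. Summed over transcripts, Nkg7 was 5.88 in KO replicate 1 and 5.64 in KO replicate 3, the reverse of their order in the share. Pearson's r with the log2 share was 0.88 for Nkg7 (exact permutation p = 0.00139, 0.0139 adjusted over the 10 genes), with a Spearman's rho of 1 (p = 0.00278, 0.0278 adjusted). For Klrb1c r was 0.96 (exact permutation p = 0.00556, 0.0278 adjusted) and rho 0.89 (p = 0.0333, 0.167 adjusted). For Cd3d r was 0.85 (exact permutation p = 0.00972, 0.0324 adjusted) and rho 0.77 (p = 0.103, 0.171 adjusted). The other 7 genes did not pass after adjustment, with r from −0.28 for Cd3e to 0.88 for Cd4. In 6 of 10 genes r was above 0.8, against 3.68% of all genes tested in the lung. Without the 2 lungs farthest from the median share, WT replicate 3 and KO replicate 2, none of the 10 stayed above 0.8, against 4.98% of all genes. Over those 4 lungs r was 0.78 for Nkg7 and 0.76 for Klrb1c, but it fell to 0.49 for Cd3d, 0.33 for Ncr1, 0.23 for Cd3g and 0.015 for Cd4, so the relation of these last genes rests on the 2 lungs left out. With both measures centred on their genotype means, r was above 0.8 for 6 of 10 genes, against 8.80% of all genes. An exact permutation within genotypes (36 arrangements) gave p = 0.0278, the smallest it can give, for Nkg7 (r = 0.90) and Klrb1c (r = 0.96), which came to 0.111 after adjustment over the 10 genes, so no gene passed within genotypes. In the deposited values Nkg7, Klrb1c, Cd3g and Gzma had the order of the share in both genotypes. The part of the Rn7s1 share in the levels was not tested.

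**Figure D5:**
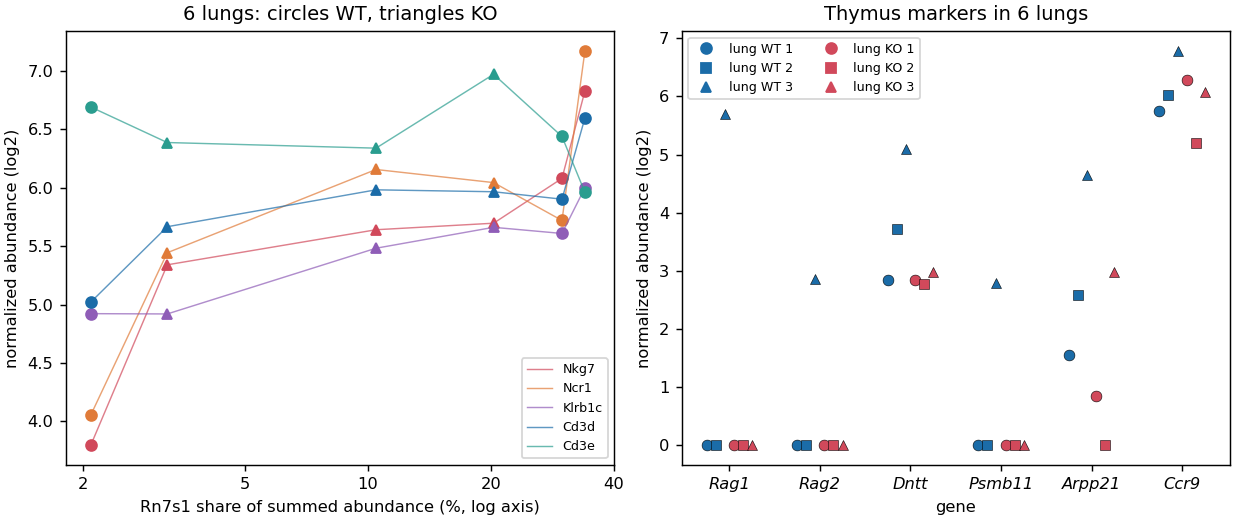
On the left, normalized abundance (log2, y axis) of Nkg7, Ncr1, Klrb1c, Cd3d and Cd3e against the Rn7s1 share (x axis, %, log scale) in the 6 lungs, with lines joining the lungs in order of the share. On the right, normalized abundance of 6 thymus markers in the same lungs, where Rag1, Rag2 and Psmb11 are above 0 in WT replicate 3 alone.

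Pairs of genes moved together over the lungs to different degrees, which is given as a description over 6 libraries that share depth and composition with each gene. Pearson's r was 0.995 between Cd3d and Ncr1, 0.97 between Cd3d and Nkg7, 0.95 between Nkg7 and Ncr1 and 0.88 between Cd8a and Cd8b1. Cd3e was negatively correlated with 8 of the other 9 genes, down to −0.93 with Cd8a. These correlations use the deposited Cd3e values, which differed from the sums over transcripts by up to 0.38 in the lung. The Cd3e sums themselves spanned only 6.34 to 6.69. For Nkg7 the deposited values differed from the sums by up to 0.26 in the lung. Lung WT replicate 1 was the highest lung in 8 of the 10 genes, and WT replicate 3 the lowest in 5. Over the deviations of all 12 libraries from their group means, the genes most like the mean of the 3 CD3 genes were Urm1 (r = 0.92), Plekha7 (0.89), Polr1e (0.89), Tpbgl (0.88) and Tnfsfm13 (0.87) among 12182 genes ranked. Those most like the mean of Gzma, Klrb1c and Ncr1 were Dna2 (0.96), Acadsb (0.94), Nudt16 (0.91), Rab4a (0.89) and Rdh14 (0.88). Of these 12 libraries 6 are hearts, where the 10 genes lay near the detection limit, so these ranks rest in part on near-zero counts. On the same measure the other 7 of the 10 genes lay between −0.24 (Cd4) and 0.75 (Nkg7) against the CD3 mean, and between −0.09 (Cd3g) and 0.52 (Nkg7) against the mean of Gzma, Klrb1c and Ncr1. The tissues differed in this. Against the CD3 mean r lay between 0.14 (Cd8a) and 0.98 (Klrb1c) within the 6 lungs, with Cd4 at 0.79. Within the 6 hearts it lay between −0.87 (Cd4) and 0.70 (Nkg7). Against the mean of Gzma, Klrb1c and Ncr1 it lay between −0.57 (Cd3e) and 0.99 (Cd3d) in the lungs. In the hearts that range was −0.64 (Cd3g) to 0.47 (Cd3e).

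Genes from 6 wider lists of T cell and NK cell genes were mostly higher in the lung. Their counts stand against 30.1% of all genes called higher, and like the 10 genes most of them passed the filter on low values through the lung. Of the receptor chains, 4 of 5 tested were called higher in the lung and none lower, led by the T cell receptor beta constant genes Trbc1 (log2 difference 5.41, SE 0.51) and Trbc2 (4.88, SE 0.24). Of 22 genes of proximal receptor signalling, 16 were called higher, among them Cd2, an adhesion receptor (5.28, SE 0.33), and the kinase gene Lck (4.69, SE 0.29). Of 13 tested genes of costimulation and homing, 8 were called higher, among them Ccr7, a lymph node homing receptor gene (5.03, SE 0.27), and Il7r, which encodes the interleukin 7 receptor (4.82, SE 0.31). Of 13 transcription factor genes, 6 were called higher, with Lef1 at 5.05 (SE 0.43) and Tcf7 at 4.61 (SE 0.21).

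Of 19 tested NK cell receptor and adaptor genes, 9 were called higher in the lung, from Cd244a (5.23, SE 0.37) to S1pr5 (0.86, SE 0.35), a sphingosine phosphate receptor. Of 9 tested cytotoxic granule genes, 4 were called higher, among them the perforin gene Prf1 (3.83, SE 0.35), and 1 lower, the granzyme gene Gzmm (−2.69, SE 0.29). Gzmm was higher in the heart, with a mean of 6.68, than in the lung, with a mean of 3.997, the opposite of Gzma. The median log2 difference of these 6 lists lay between 3.30 and 4.45, and that of the 10 genes was 4.59.

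Between KO and WT lungs, no gene of these 6 lists was called in either direction. The medians of their log2 fold changes lay between −0.20, for the NK cell receptors and adaptors, and 0.12, for the transcription factors, and the median of the 10 genes was 0.01. Of all genes tested in the lung, 51.6% were higher in KO by sign. Of the 18 NK cell receptor and adaptor genes tested, 13 were lower and 5 higher by sign alone, and the most abundant of them were Tyrobp (−0.23, SE 0.18), Fcgr3 (−0.32, SE 0.21) and Fcer1g (−0.21, SE 0.22). All 3 are also expressed by macrophages. The receptor chains Trbc2 (0.05, SE 0.22), Trbc1 (−0.03, SE 0.22) and Cd247 (−0.05, SE 0.24) had fold changes smaller than their errors. In the heart no gene of the 6 lists was called.

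Markers of other blood cells also varied over the lungs. The B cell genes were higher in KO by sign in 11 of 11, with a median log2 fold change of 0.40, and none was called. The summed B cell level was between 11.52 and 12.26 in WT lungs and between 12.28 and 12.59 in KO lungs. This sum gives most weight to Ighm, the most abundant of the 11 genes, at 9.91 to 10.67 in WT lungs and 11.27 to 11.43 in KO lungs. Lung WT replicate 1 was the highest of 6 in 4 of the 11 genes and WT replicate 3 in 1, while KO replicates 1 and 3 were highest in 3 each. The share of all genes in which KO and WT lungs did not overlap was not taken, so these ranges are a description. The most changed B cell genes were the immunoglobulin heavy chain genes Ighm (1.06, SE 0.20, adjusted p = 0.386) and Ighd (1.08, SE 0.35, adjusted p = 0.806), named here after their values were seen. The red blood cell genes were lower in KO by sign in 6 of 6, with a median of −1.08, and none was called. Their summed level was between 14.92 and 16.66 in WT lungs and between 12.85 and 17.16 in KO lungs, so the genotypes overlapped. The neutrophil genes were higher in KO by sign in 6 of 6 tested, with a median of 0.24, and none was called. Of the 9 genes of that list, Ly6g, Ngp and Camp fell below the filter and had lower means in KO lungs. Those means were 0.95, 2.79 and 1.84 in WT lungs and 0.85, 2.49 and 1.41 in KO lungs. Lung KO replicate 3 was the highest of 6 in 7 of the 9 genes. The part of the blood left in the tissue in the levels of the T cell and NK cell genes was not tested.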

How the data were processed

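Whole lung and heart RNA of 6 mice was sequenced on stranded total RNA libraries. The authors trimmed reads, aligned them to mm39 and estimated transcript counts with Salmon (GENCODE vM33); per the labels, cutadapt, STAR, Salmon and limma 3.42.2 were used. The deposited gene and transcript values are on a log2 scale. Transcript values are log2(1 + estimated count), and gene values are scaled between libraries by a constant per library. How the authors joined transcripts into genes is not given in the sources used here, and gene values of genes with several transcripts differ from the summed counts.

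The deposited values were tested with limma 3.58.1 (lmFit and eBayes with a trend, R 4.3.3) and Benjamini-Hochberg adjustment over all genes that reached 3.46, or log2(1 + 10), in 3 or more of the libraries fitted. A gene was called at an adjusted p under 0.05, a fold of at least 1.5 and a higher group mean of at least 6. The genotypes were compared within each tissue, and the tissues and the interaction in 1 model of 4 group means over 12 libraries. Exact permutation tests used scipy 1.17.1. The test was checked on simulated data. Lung and heart of a mouse share an identifier in the labels. The correlations of their deviations over 17666 genes came to 0.05, 0.14 and −0.02 in WT mice and to 0.02, −0.07 and −0.04 in KO mice. Reads per kilobase used transcript lengths of GENCODE vM39 on GRCm39, where 99.0% of genes matched. Labels name no separate cultures or litters, so p-values measure the spread between these mice. The 10 genes and all lists were chosen with earlier results of these data known. Named genes are the 10 genes, called genes of the lists or, where none was called, up to 3 with the highest mean, and the 5 most correlated genes. The thymus genes printed, the pairs of genes, the spread without lung WT replicate 3 and the Rn7s1 comparison, also within genotypes, were chosen after their values were seen. Some genes of the lists are not reported here by name. Protein sequences were not used here.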

Additional observations from a re-analysis of the deposited data

How the results depend on the processing

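No setting or left-out library called any of the 10 genes between KO and WT in either tissue, and every setting kept the lung above the heart in all 10 at an adjusted p under 0.05, except that with at least 10 estimated counts in every library none of the 10 could be tested and 0 were called. Total count scaling, median-of-ratios scaling and limma-voom started from estimated counts summed over transcripts, so each changed the gene step together with the scaling. Scaling to the total count moved the median lung gene by 0.29 (log2, KO minus WT) against the deposited scaling. Signs of fold changes near 0 turned under these settings. With total count scaling the lung values were 0.24 for Cd3g, 0.23 for Cd8a, 0.43 for Nkg7 and 0.026 for Klrb1c. With limma-voom they were 0.23, 0.25, 0.48 and 0.023, and with median-of-ratios scaling Nkg7 was 0.15. For Cd4 in the heart, total count scaling, median-of-ratios scaling and limma-voom gave −0.30, −0.38 and −0.33. The median heart gene moved by 0.035 (log2, KO minus WT) with total count scaling and by −0.038 with median-of-ratios scaling. Summed over transcripts on the deposited scale, Cd4 was 3.88, 4.25 and 3.996 in WT hearts and 3.53, 4.34 and 3.24 in KO hearts.

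With 1 lung left out, the lung values ranged from −0.38 to 0.41 for Cd3d, from −0.00046 to 0.37 for Cd3e, from −0.22 to 0.19 for Cd3g and from −0.15 to 0.27 for Cd4. They ranged from −0.25 to 0.17 for Cd8a, from −0.079 to 0.23 for Cd8b1, from −0.89 to 0.62 for Nkg7, from −0.45 to 0.089 for Klrb1c and from −0.56 to 0.99 for Ncr1, while Gzma kept its sign (−0.89 to −0.17). Leaving out 1 heart gave −0.11 to 0.64 for Cd4 in the heart. Between 6 and 9 of the 10 genes were called in the tissue comparison with 1 library left out.

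Over all genes, 1 was called in the lung and 7 in the heart with at least 10 estimated counts in every library, and between 10 and 21 in the heart with 1 library left out, the highest without heart KO replicate 2. The interaction was called for 0 genes with total count scaling and for 0 to 5 with 1 library left out. With the mouse as a replicate block, 2 genes were called in the interaction, and the lung to heart difference of Gzma stayed at 5.59 with an SE of 0.28. The block changed no other call of the 10 genes. Genotypes share no mice, so the genotype comparisons were not paired. Depth limits the heart, where 9 of the 10 genes were below the filter. The parts that the gene step and the scaling have in the sign changes were not tested apart.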
